A study of Homo sapiens with 9 samples.

Results

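The genes described here are those of the pyruvate dehydrogenase complex, the enzymes that switch it off and on, and a subunit of the carrier that feeds it. The members were taken by gene name from the count table, and all 10 were found, each in 1 row, among 58735 genes. They are PDHA1, PDHB, DLAT, PDHX and DLD of the complex, the kinases PDK1, PDK2 and PDK3, the phosphatase PDP1, and the carrier subunit MPC2. All 10 passed the filter on low counts, as did 15811 genes in all. The RNA-seq libraries, made from polyadenylated RNA, are of PANC-1, an established line from a human pancreatic ductal carcinoma, and form 3 groups of 3: ACSS2-KO-3, ACSS2-KO-2 and NC. Both KO groups are knockouts of ACSS2, which converts acetate to acetyl-CoA, and each was compared with NC and with the other. The labels give neither the meaning of the numbers 2 and 3 (guides, clones or pools) and of NC, nor the way the gene was disrupted. Groups were taken from the sample titles, since the treatment labels name a different ACSS gene, ACSS2 to ACSS7, for each of the 6 KO libraries. Nothing in the labels says that replicates are separate cultures, so the p-values cover only the spread among these libraries, possibly a technical one.

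The pyruvate dehydrogenase complex sits in the mitochondrial matrix and turns pyruvate into acetyl-CoA, which links glycolysis to the TCA cycle. Its E1 part decarboxylates pyruvate with thiamine diphosphate, E2 passes the acetyl group to coenzyme A on a lipoyl arm, and E3 reoxidises that arm. Kinases (PDK1 to PDK4) phosphorylate E1 and switch the complex off, and phosphatases remove the phosphate. In tumour cells PDK1 is known as a target of the hypoxia-inducible factor HIF, and a high PDK activity steers pyruvate to lactate.

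The starts of the 3 kinase genes are shown first, because PDK1 had the largest fold change of the members in ACSS2-KO-3 and is known as a HIF target, and PDK2 and PDK3 are its sister genes. RefSeq's promoter table (GRCh38.p14) held an entry for 9 of the 10 members. For each gene the start nearest to that of its GENCODE principal transcript was used. The RefSeq start lay 121 bases from the principal start for PDK1, 76 for PDK2 and 170 for PDK3. All distances below are to the RefSeq start. The 250 bases before the start were searched on both strands for ACGTG, the commonest core of the HIF-binding hypoxia response element, which reads CACGT where it lies on the other strand. The 6 bases CACGTG hold it on both strands and are also the E-box, the site of other factors. The lines run 5′ to 3′ on the gene's strand, with every match in capitals. PDK1 is at chr2:172555840-172556089, PDK2 at chr17:50095101-50095350 and PDK3 at chrX:24465036-24465285, all on the plus strand.
PDK1: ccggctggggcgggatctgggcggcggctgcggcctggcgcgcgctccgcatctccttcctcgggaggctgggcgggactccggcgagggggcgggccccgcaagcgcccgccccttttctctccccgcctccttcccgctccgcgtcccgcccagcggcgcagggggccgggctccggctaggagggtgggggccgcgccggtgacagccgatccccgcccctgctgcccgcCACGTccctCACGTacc
PDK2: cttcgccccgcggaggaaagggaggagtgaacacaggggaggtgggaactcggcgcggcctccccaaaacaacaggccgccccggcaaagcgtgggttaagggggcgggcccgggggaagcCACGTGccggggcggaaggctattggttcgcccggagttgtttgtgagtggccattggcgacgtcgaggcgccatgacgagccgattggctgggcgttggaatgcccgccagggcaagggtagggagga
PDK3: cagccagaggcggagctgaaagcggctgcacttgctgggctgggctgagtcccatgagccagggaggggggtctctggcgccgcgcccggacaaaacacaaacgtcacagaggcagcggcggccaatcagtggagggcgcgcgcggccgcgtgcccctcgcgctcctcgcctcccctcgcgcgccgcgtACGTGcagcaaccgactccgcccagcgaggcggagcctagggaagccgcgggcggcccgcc
PDK1 held the motif at 2 separate places, which begin 17 and 8 bases before the start. PDK2 held it at 1 place, beginning 129 bases before the start, in the form CACGTG. PDK3 held it at 1 place, 61 bases before the start. The motif was present in 18.5% of the 35116 promoter windows in the table, and 2.61% held it at 2 or more places. These shares are not matched for GC content, which was 79.6% in the PDK1 window, 67.6% in PDK2 and 73.6% in PDK3. The median over all windows was 58%. PDHB also held it at 2 separate places, PDHX and DLAT at 1 each, and the windows of PDHA1, DLD and MPC2 had none of these letters. A match is a description of the sequence and not a binding site.

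Library totals ran from 14756572 to 17457190 counts. Levels are CPM, a gene's counts relative to its library's total after TMM scaling between libraries. ACSS2 itself averaged 8.09 ± 0.779 CPM in ACSS2-KO-3, 14.1 ± 1.45 CPM in ACSS2-KO-2 and 30.7 ± 2.53 CPM in NC (SD, n = 3 each). All 6 epithelial markers checked were detected in each group, with summed levels of 5243 to 5900 CPM in ACSS2-KO-3, 4080 to 4500 CPM in ACSS2-KO-2 and 4414 to 4449 CPM in NC. The largest part was KRT8, whereas EPCAM was lower in ACSS2-KO-3 (5.35 to 6.02 CPM) than in NC (9.11 to 9.51 CPM). The 5 mesenchymal markers, all detected, summed to 1739 to 1852, 1517 to 1741 and 1759 to 2009 CPM in the same groups. Of these, ZEB1 was lower in ACSS2-KO-3 (8.82 to 12.8 CPM) than in NC (32.4 to 34.0 CPM), and CDH2 was higher. Immune, endothelial, acinar and islet markers summed to under 6 CPM in every library. Fold changes are log2 values from 1 edgeR quasi-likelihood fit of the 9 libraries, and an adjusted p under 0.05 over all tested genes counts as passing.

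The ACSS2-KO-3 libraries stood apart from the other 6 in a way that touches several members. Across tested genes the fold change of ACSS2-KO-3 against NC followed the GC content of the transcript. Its median was -1.01 among 740 genes with 36 to 38% GC and 0.26 among 971 genes with 58 to 60% GC. The same medians for ACSS2-KO-2 against NC were 0.01 and -0.01. The members' longest coding transcripts span this range, with 39.3% GC for DLD, 39.8% for PDK1, 41.0% for PDP1, 42.2% for MPC2, 43.3% for DLAT, 43.5% for PDHX, 44.1% for PDK3, 44.5% for PDHB, 46.6% for PDHA1 and 59.8% for PDK2. A second fit therefore carried an offset per gene and library for GC content and transcript length. Its values are given beside the first wherever a member's call differs. Whether the GC trend comes from the cells or from the libraries was not tested.

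**Figure D1:**
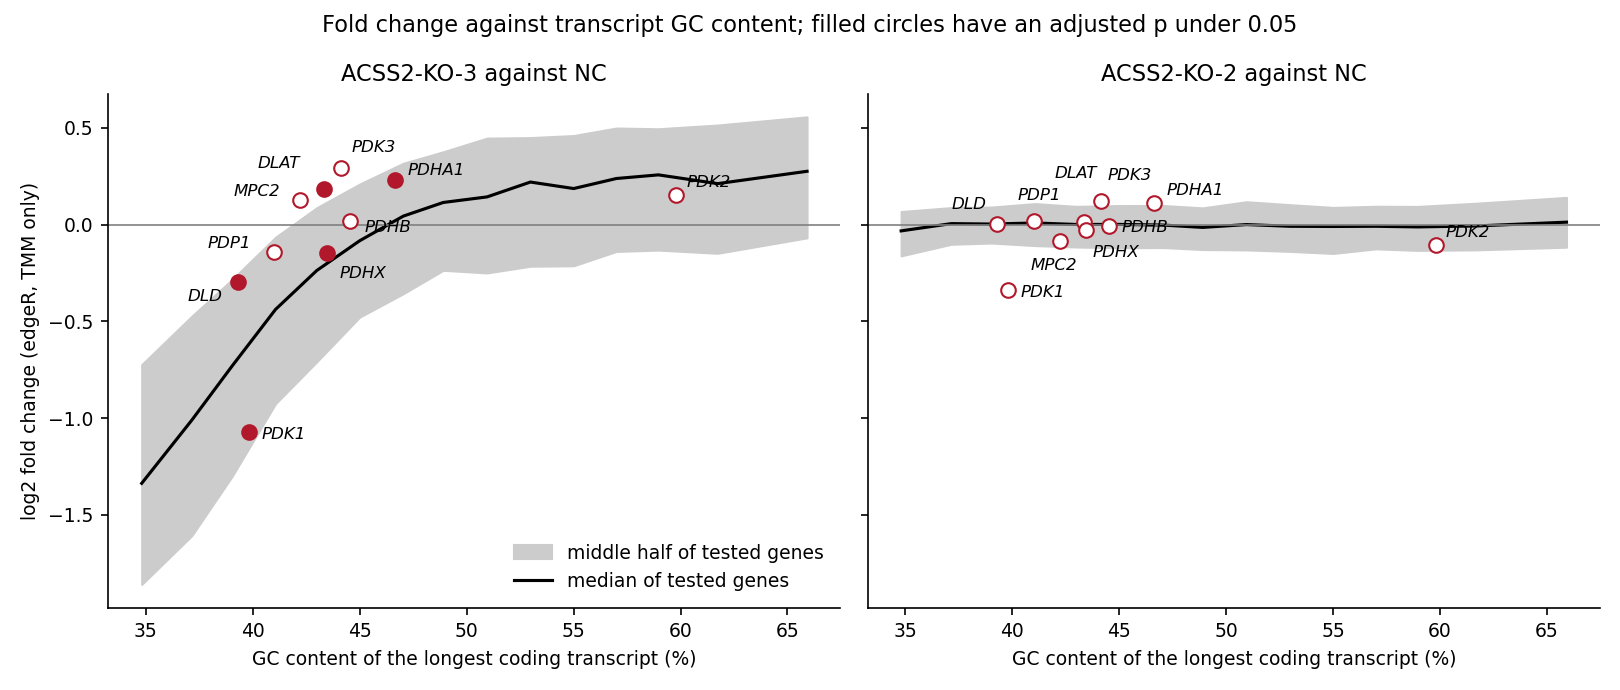
Log2 fold change (vertical axis, TMM scaling only) against the GC content of the longest coding transcript in percent (horizontal axis), for ACSS2-KO-3 against NC on the left and ACSS2-KO-2 against NC on the right. The line is the median and the grey band the middle 50% of tested genes by GC range; filled circles are members with an adjusted p under 0.05. At their GC contents DLAT, MPC2 and PDK3 lie above the band and PDK1 near its lower edge on the left, and on the right PDK1 alone lies well below the band.

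Levels of different genes are compared here per length. The ratios between members given further below are of CPM without length scaling, and serve only to compare the groups. Per 1000 bases of the deposited gene length, every subunit of the complex was above every kinase in each group. The lowest subunit was DLD at 12.8 CPM in ACSS2-KO-3 and 15.8 CPM in ACSS2-KO-2, and PDHA1 at 14.6 CPM in NC. The highest kinase was PDK2, at 5.69 CPM in ACSS2-KO-3, 4.75 CPM in ACSS2-KO-2 and 5.11 CPM in NC. DLAT was the highest member, at 31.7 CPM in ACSS2-KO-3, 28.1 CPM in ACSS2-KO-2 and 27.9 CPM in NC, and PDHB was second. The order depends on the length used: with the longest or the principal coding transcript PDHB was first and DLAT second. With the median length of coding transcripts DLAT was below PDHA1, PDHX and PDHB in every group, and PDK2 was above DLD in ACSS2-KO-3.

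The E1 subunits carry the site that the kinases phosphorylate. PDHA1, the catalytic and phosphorylated E1 alpha subunit, stood at 79.6, 75.6 and 76.7 CPM in ACSS2-KO-3, at 75.7, 68.1 and 69.1 CPM in ACSS2-KO-2, and at 62.4, 65.6 and 69.2 CPM in NC. Every ACSS2-KO-3 library was above every NC library, whereas the ACSS2-KO-2 and NC libraries overlapped. PDHA1 rose in ACSS2-KO-3 by 0.23 on the log2 scale (SE 0.06, adjusted p = 0.00189 by edgeR), and with the GC and length offsets it no longer passed (0.09, adjusted p = 0.152). With offsets from the median coding transcript in place of the longest, PDHA1 did pass as higher, so its call depends on the transcript used. Its value in ACSS2-KO-2 was 0.11 (SE 0.06, adjusted p = 0.351). PDHB, the E1 beta subunit, averaged 118 ± 2.71 CPM in ACSS2-KO-3, 116 ± 4.62 CPM in ACSS2-KO-2 and 116 ± 5.52 CPM in NC (SD, n = 3 each). Its libraries overlapped in all comparisons, and its fold change against NC was 0.02 (95% interval -0.10 to 0.13) in ACSS2-KO-3 and -0.01 (95% interval -0.12 to 0.11) in ACSS2-KO-2. PDHB passed as higher in ACSS2-KO-3 in 1 of the 20 alternative settings, with offsets from the median coding transcript in place of the longest (0.24 against NC, adjusted p = 0.000116, and 0.23 against ACSS2-KO-2, adjusted p = 0.000194, by edgeR). The RNA ratio of PDHA1 to PDHB within a library averaged 0.657 in ACSS2-KO-3, 0.614 in ACSS2-KO-2 and 0.566 in NC. The ACSS2-KO-2 libraries (0.589 to 0.636) overlapped with those of NC (0.512 to 0.624). The ratio carries no GC correction. With the offsets PDHA1 (0.09) and PDHB (0.07) had like fold changes in ACSS2-KO-3 against NC, so no direction is given for it.

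Of the E2 core and the proteins bound to it, DLAT held its direction in ACSS2-KO-3 with and without the offsets, whereas DLD and PDHX did not hold their calls. DLAT, the E2 acetyltransferase that carries the lipoyl arms, stood at 149, 150 and 160 CPM in ACSS2-KO-3, at 139, 133 and 135 CPM in ACSS2-KO-2, and at 136, 134 and 133 CPM in NC. The ACSS2-KO-3 libraries were above all 6 others, and the ACSS2-KO-2 and NC libraries were mixed. DLAT rose in ACSS2-KO-3 by 0.19 (SE 0.05, adjusted p = 0.00296 by edgeR), and the value was 0.31 with the offsets (adjusted p = 9.49e-07). In ACSS2-KO-2 it was 0.01 (95% interval -0.09 to 0.12).

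DLD, the E3 dihydrolipoyl dehydrogenase shared with the other 2-oxoacid dehydrogenases and the glycine cleavage system, stood at 69.8, 69.5 and 64.1 CPM in ACSS2-KO-3, at 81.6, 84.2 and 84.9 CPM in ACSS2-KO-2, and at 87.5, 80.8 and 81.6 CPM in NC. All 3 ACSS2-KO-3 libraries lay below the other 6. DLD fell in ACSS2-KO-3 by 0.30 (SE 0.06, adjusted p = 9.45e-05 by edgeR), but with the offsets its direction turned and it passed as higher (0.28, SE 0.05, adjusted p = 3.92e-05). DLD has the lowest GC content of the members. In its GC range of 38 to 40% the median of 1136 tested genes in ACSS2-KO-3 against NC was -0.73. In ACSS2-KO-2 the fold change of DLD was 0.0049 (95% interval -0.11 to 0.12).

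PDHX, the E3-binding protein that docks DLD to the core, averaged 62.1 ± 2.63 CPM in ACSS2-KO-3, 67.4 ± 1.25 CPM in ACSS2-KO-2 and 68.8 ± 1.77 CPM in NC (SD, n = 3 each). Its ACSS2-KO-3 libraries were below all NC libraries. The fall of 0.15 in ACSS2-KO-3 (SE 0.06, adjusted p = 0.0311 by edgeR) was the weakest call among the members. It did not pass with the offsets (-0.02, adjusted p = 0.727) or with any of the other offset fits. It also did not pass with RLE size factors (-0.13, adjusted p = 0.0524), with no low-count filter (-0.14, adjusted p = 0.115), with DESeq2 (-0.13, adjusted p = 0.0710) or without NC replicate 1, 2 or 3, ACSS2-KO-2 replicate 2, or ACSS2-KO-3 replicate 2 or 3 (adjusted p = 0.0545 to 0.132 by edgeR). The ratio of DLAT to DLD averaged 2.26 in ACSS2-KO-3, 1.63 in ACSS2-KO-2 and 1.62 in NC, and that of DLAT to PDHX averaged 2.47, 2.01 and 1.96 in the same groups. Each ACSS2-KO-3 library was above the 6 others in both ratios. The ratios carry no GC correction, and with the offsets DLAT (0.31) and DLD (0.28) were both higher in ACSS2-KO-3 than in NC by about the same amount, so no direction is given for the ratio of DLAT to DLD.

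**Figure D2:**
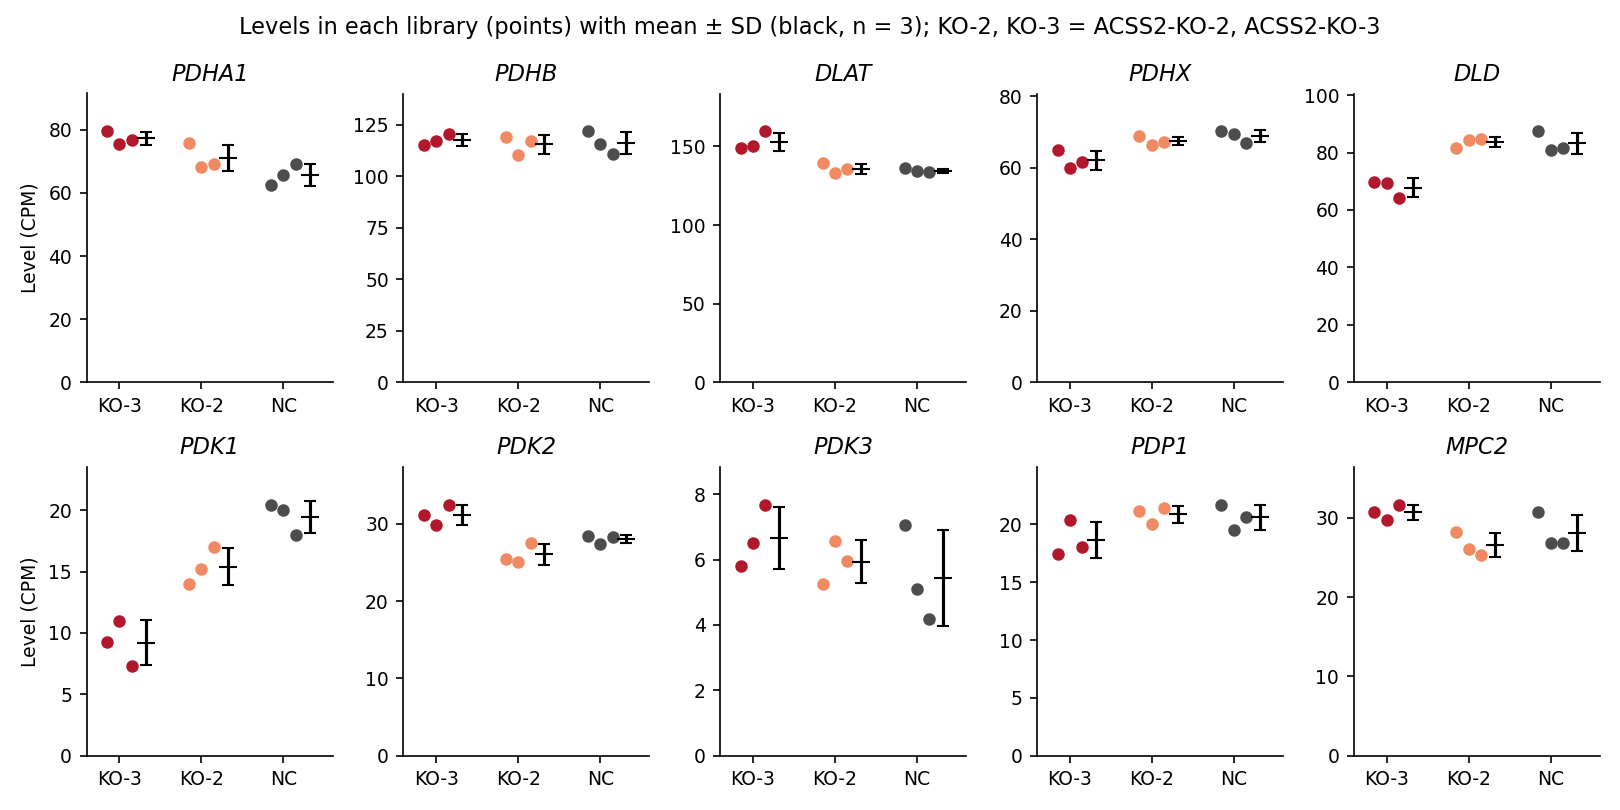
Level of each member in CPM (vertical axes, from 0) in the 3 libraries of ACSS2-KO-3, ACSS2-KO-2 and NC (points), with mean and SD beside them (n = 3). PDK1 is lower in every ACSS2-KO-3 library than in any other and lower in every ACSS2-KO-2 library than in NC, whereas the PDHB, PDK3 and PDP1 points of the 3 groups overlap.

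In the fit of all 9 libraries PDK1 had the largest fold changes of the 10 members against NC in both knockouts. It stood at 9.28, 11.0 and 7.34 CPM in ACSS2-KO-3, at 14.0, 15.2 and 17.0 CPM in ACSS2-KO-2, and at 20.5, 20.0 and 18.0 CPM in NC, from 107 to 328 counts a library. No library of 1 group overlapped with another group. PDK1 fell in ACSS2-KO-3 to 47.5% of NC (log2 fold change -1.07, SE 0.12, adjusted p = 1.41e-08 by edgeR). With the offsets the fall was smaller but still passed (-0.43, SE 0.11, adjusted p = 0.00124), and it passed in 9 of 9 fits without 1 library, at -0.51 to -0.30. In bulk RNA, less RNA per cell and fewer cells with the RNA cannot be told apart.

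PDK1 in ACSS2-KO-2 was 79.0% of NC (log2 fold change -0.34, 95% interval -0.57 to -0.11) and did not pass in the fit of all libraries (adjusted p = 0.0707 by edgeR). With the offsets it passed (-0.42, SE 0.10, adjusted p = 0.00510), again in 9 of 9 fits without 1 library. It also passed in a fit of only the ACSS2-KO-2 and NC libraries (-0.34, adjusted p = 0.0230), and whenever any 1 ACSS2-KO-3 library was left out (adjusted p = 0.0325 to 0.0469). With TMM scaling it did not pass when any NC or ACSS2-KO-2 library was left out. Thus 3 of 9 fits without 1 library passed, with a highest adjusted p of 0.226 by edgeR. DESeq2 gave -0.32 (adjusted p = 0.143) and limma-voom -0.34 (adjusted p = 0.0518). Over the 20 alternative settings the ACSS2-KO-2 value ran from -0.42 to -0.27. The values of PDK1 also depend on the transcript used. Its coding transcripts run from 558 to 14193 bases and from 39.8 to 50.3% GC. With offsets from the median coding transcript in place of the longest, its fold changes were -0.69 in ACSS2-KO-3 (adjusted p = 7.35e-06) and -0.32 in ACSS2-KO-2 (adjusted p = 0.0599).

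PDK2, the most widely expressed kinase isoform, stood at 31.1, 29.9 and 32.5 CPM in ACSS2-KO-3, at 25.5, 25.1 and 27.6 CPM in ACSS2-KO-2, and at 28.4, 27.4 and 28.3 CPM in NC. The ACSS2-KO-3 libraries were above all others. The fold change in ACSS2-KO-3 against NC, 0.15 (SE 0.07, adjusted p = 0.0777 by edgeR), did not pass, and with the offsets it turned to -0.19 and passed as lower (SE 0.07, adjusted p = 0.0223). This lower call passed in 5 of 9 offset fits without 1 library (adjusted p = 0.0233 to 0.103 by edgeR). It did not pass with offsets from the median coding transcript. In ACSS2-KO-2 the fold change of PDK2 was -0.11 (adjusted p = 0.494). The exons of PDK2 overlap with exons of other genes on the opposite strand over 38.6% of their length, the largest share among the members, and whether the counting used the strand is not stated. SAMD14, the main gene on that strand, had 12.5% as many counts as PDK2 over the 9 libraries.

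PDK3, the kinase with the highest activity of the family in vitro, had the fewest counts of the members, 70 to 113 a library. It averaged 6.67 ± 0.942 CPM in ACSS2-KO-3, 5.93 ± 0.657 CPM in ACSS2-KO-2 and 5.44 ± 1.47 CPM in NC (SD, n = 3 each), with libraries that overlapped. Its fold changes were 0.29 in ACSS2-KO-3 (95% interval -0.06 to 0.64) and 0.12 in ACSS2-KO-2 (95% interval -0.23 to 0.48), and both intervals include 0. Without NC replicate 1, the highest of the NC libraries at 7.05 CPM, PDK3 passed as higher in ACSS2-KO-3 (0.53, adjusted p = 0.0138). With the offsets its value in ACSS2-KO-3 was 0.37 (95% interval 0.03 to 0.71) and did not pass (adjusted p = 0.0552 by edgeR). It passed in 3 of 9 offset fits without 1 library. With offsets from the median coding transcript it passed as higher (adjusted p = 0.0456 by edgeR).

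The kinase RNAs were also set against each other within libraries. The ratio of PDK1 to PDK2 was 0.226 to 0.368 in ACSS2-KO-3 libraries, 0.549 to 0.616 in ACSS2-KO-2 libraries and 0.637 to 0.729 in NC libraries, so the 3 groups did not overlap. This ratio carries no GC correction, and with the offsets the fold changes between the knockouts were -0.01 for PDK1 and -0.08 for PDK2, neither passing. With offsets from the median coding transcript they were -0.37 and -0.07, so whether this ratio separates the knockouts depends on the treatment of GC content and length. Per 1000 bases of the deposited gene length, PDK2 made up 65.0 ± 1.89% of the RNA of the 4 kinases in ACSS2-KO-3, 57.4 ± 2.18% in ACSS2-KO-2 and 56.5 ± 2.96% in NC (SD, n = 3 each). The share of PDK1 was 7.09 ± 1.54% in ACSS2-KO-3, 12.5 ± 0.875% in ACSS2-KO-2 and 14.4 ± 0.734% in NC. PDK2 had the largest share in every group with each of the 4 lengths tried, but the share of PDK1 depended on the length. In ACSS2-KO-3, ACSS2-KO-2 and NC it was 4.48%, 8.09% and 9.60% per length of the longest coding transcript, and 14.8%, 25.5% and 28.8% per median length of the coding transcripts. These shares carry no GC correction.

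**Figure D3:**
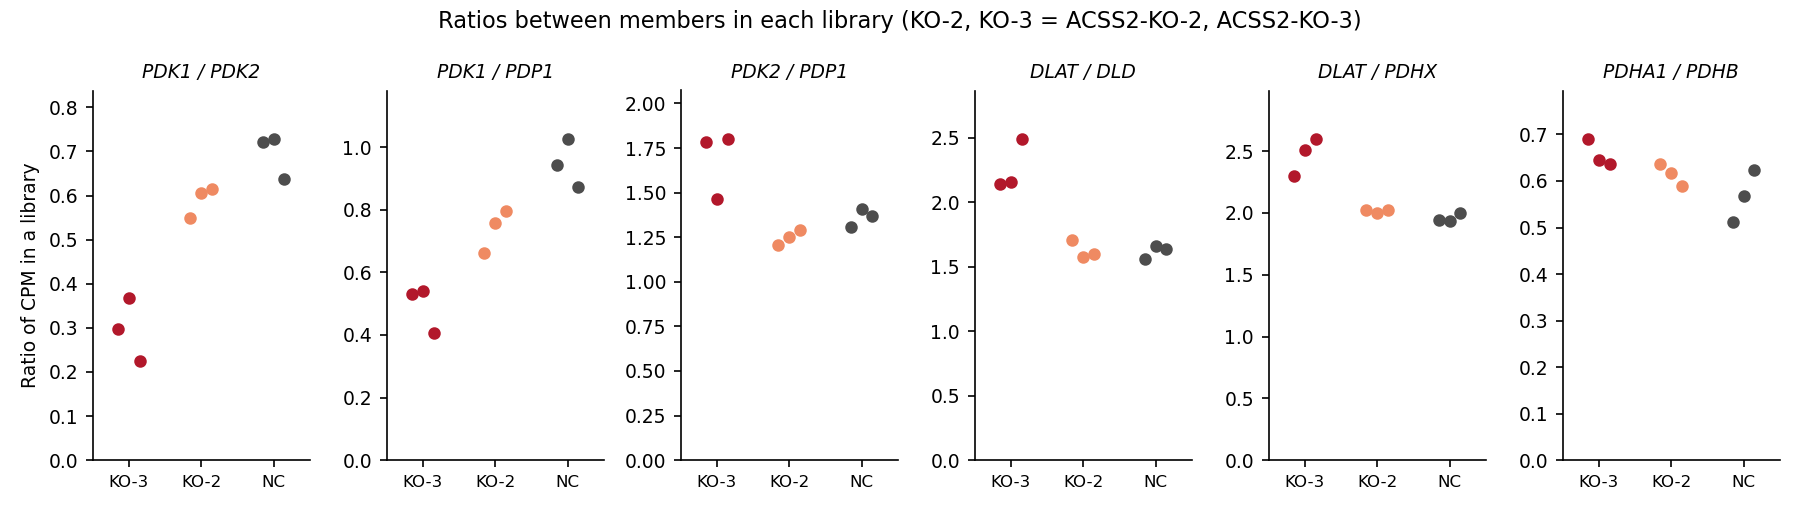
Ratio of the CPM of 2 members in each library (vertical axes, from 0) in ACSS2-KO-3, ACSS2-KO-2 and NC. PDK1 to PDK2 is 0.226 to 0.368 in ACSS2-KO-3, below all other libraries, and DLAT to DLD and DLAT to PDHX are higher in every ACSS2-KO-3 library than in any ACSS2-KO-2 or NC library. The ratios carry no GC correction; with the offsets DLAT and DLD had like fold changes in ACSS2-KO-3 against NC (0.31 and 0.28).

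PDP1, the calcium-stimulated phosphatase that reactivates E1, stood at 17.4, 20.4 and 18.0 CPM in ACSS2-KO-3, at 21.2, 20.1 and 21.4 CPM in ACSS2-KO-2, and at 21.7, 19.5 and 20.6 CPM in NC. The groups overlapped. Its fold change in ACSS2-KO-3 was -0.14 (SE 0.09, adjusted p = 0.168 by edgeR). With the offsets it turned to 0.23 and passed (SE 0.08, adjusted p = 0.0194), but with offsets from the median coding transcript it was -0.15 (adjusted p = 0.139), so no direction is given. In ACSS2-KO-2 it was 0.02 (95% interval -0.16 to 0.20). The ratio of PDK1 to PDP1, a kinase to a phosphatase RNA, averaged 0.488 in ACSS2-KO-3, 0.736 in ACSS2-KO-2 and 0.945 in NC, with no overlap between groups. It too carries no GC correction. Between the knockouts PDK1 and PDP1 were at -0.73 and -0.16 with TMM scaling and at -0.01 and 0.22 with the offsets.

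MPC2 forms the mitochondrial pyruvate carrier together with MPC1. It stood at 30.8, 29.8 and 31.7 CPM in ACSS2-KO-3, at 28.3, 26.1 and 25.3 CPM in ACSS2-KO-2, and at 30.8, 26.9 and 26.8 CPM in NC. The ACSS2-KO-3 and NC libraries overlapped through NC replicate 1. Its fold change in ACSS2-KO-3 was 0.13 (SE 0.08, adjusted p = 0.164 by edgeR) and passed with the offsets (0.39, SE 0.07, adjusted p = 2.85e-05), though not with offsets from the median coding transcript (0.06, adjusted p = 0.514). Without NC replicate 1 it passed with TMM scaling alone (0.20, adjusted p = 0.0460). In ACSS2-KO-2 it was -0.08 (adjusted p = 0.632). Exons of genes on the opposite strand overlap with 22.5% of the MPC2 exon length and 21.3% of that of PDHA1, and with at most 7.63% for the other members apart from PDK2. DCAF6, opposite MPC2, had 249% as many counts as MPC2.

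In ACSS2-KO-3 against NC, 5 of the 10 members passed with TMM scaling alone: PDHA1 and DLAT were higher, and PDK1, DLD and PDHX lower. Of all tested genes 63.3% passed in this comparison, 31.2% as higher and 32.1% as lower, so the count of 5 is no more than the background. The ACSS2-KO-3 libraries were all above NC for PDHA1, DLAT and PDK2 and all below NC for PDHX, DLD and PDK1, as for 33.1% and 33.8% of tested genes. With the offsets 6 members passed, DLAT, DLD, MPC2 and PDP1 as higher and PDK1 and PDK2 as lower, where 58% of tested genes passed, 25.1% as higher and 32.8% as lower. DLAT passed as higher and PDK1 as lower in both fits and in each of the 20 alternative settings tried. The median fold change of the members was 0.07 beside -0.04 for all tested genes, and 0.16 beside -0.08 with the offsets.

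In ACSS2-KO-2 against NC no member passed with TMM scaling alone, and 1, PDK1, had an unadjusted p under 0.05 by edgeR. DESeq2 and limma-voom also called 0 members. Of all tested genes 6.65% passed, 3.81% as higher and 2.84% as lower. With the offsets, where PDK1 was the 1 member called, 9.57% passed, 5.17% as higher and 4.4% as lower. Its libraries were also the only ones among the members that did not overlap with NC, and 12.1% of tested genes had all ACSS2-KO-2 libraries below NC and 12.6% above. The median fold change of the members was -0.00070, beside -0.0031 for all tested genes. Both comparisons use the same 3 NC libraries.

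The direct comparison of the knockouts gave 5 members that passed in ACSS2-KO-3 against ACSS2-KO-2, where 61.7% of tested genes passed, 31.2% as higher and 30.5% as lower. DLAT (0.17, adjusted p = 0.00557), PDK2 (0.26, adjusted p = 0.00416) and MPC2 (0.21, adjusted p = 0.0234) were higher, and PDK1 (-0.73, adjusted p = 1.01e-05) and DLD (-0.30, adjusted p = 7.85e-05) were lower, all by edgeR. The libraries of the knockouts did not overlap for these 5 members and for PDHX, which was lower; 33.3% of tested genes had all ACSS2-KO-3 libraries above ACSS2-KO-2 and 32.6% below. With the offsets, under which 54.3% of tested genes passed, 23.1% as higher and 31.2% as lower, DLAT (0.31) and MPC2 (0.44) passed again. MPC2 did not pass with offsets from the median coding transcript (0.11, adjusted p = 0.195), with upper quartile scaling (0.18, adjusted p = 0.0558) or without ACSS2-KO-2 replicate 2 or 3 or ACSS2-KO-3 replicate 3 (adjusted p = 0.0545 to 0.0916 by edgeR). With the offsets DLD turned to 0.26 and PDP1 to 0.22, both passing, and PDK2 turned to -0.08 without passing. PDK1 no longer differed beyond its error between the knockouts (-0.01, 95% interval -0.24 to 0.22, adjusted p = 0.959). With offsets from the median coding transcript PDK1 passed as lower (-0.37, adjusted p = 0.00854), so this difference depends on the treatment of GC content and length.

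**Figure D4:**
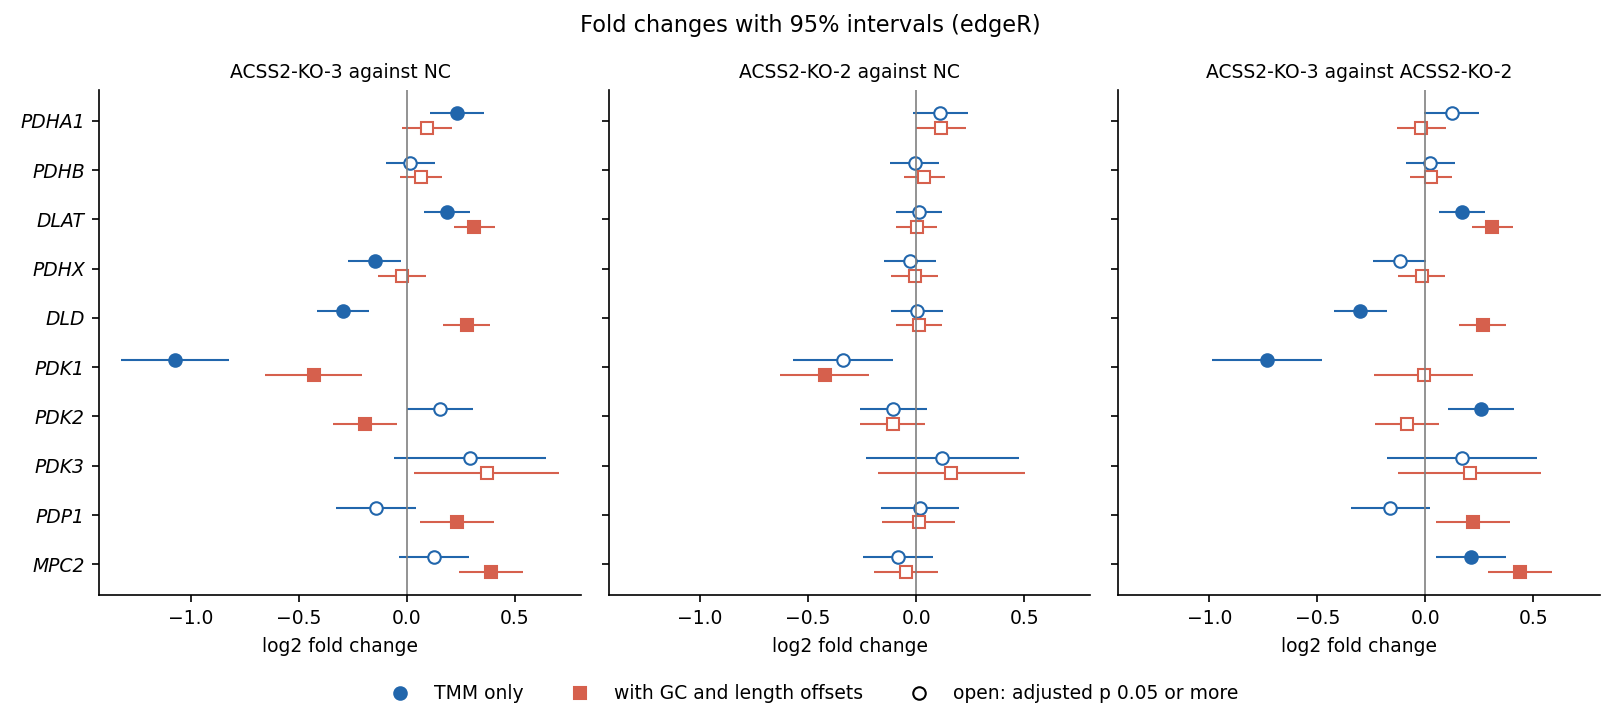
Log2 fold changes with 95% intervals (horizontal axes) of the 10 members in the 3 comparisons, with TMM scaling only (circles) and with offsets for GC content and length (squares); open symbols have an adjusted p of 0.05 or more. DLAT is above 0 in both fits and PDK1 below 0 in both fits of ACSS2-KO-3 against NC, whereas DLD is -0.30 with TMM scaling only and 0.28 with offsets.

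With TMM scaling alone, the pattern of PDK1 over the libraries was far from that of the other members. As a description, the root mean square difference between genes was taken over the 9 libraries, in log2 CPM without GC correction, centred on the NC mean. The nearest member to PDK1 was DLD, at 0.50, whereas the other 9 members each had another member within 0.08 to 0.21. Among 9640 genes averaging at least 10 CPM, the nearest to PDK1 were ALG13 (0.11), a subunit of the enzyme that adds the second sugar in N-glycan assembly, NFKBIZ (0.13), a nuclear inhibitor-kappa-B protein, and RRM2B (0.13), the p53-induced ribonucleotide reductase subunit. ALG13 averaged 35.5 CPM in ACSS2-KO-3, 56.5 CPM in ACSS2-KO-2 and 71.7 CPM in NC. Its fold changes were -1.01 and -0.34 against NC in ACSS2-KO-3 and ACSS2-KO-2 (adjusted p = 5.90e-12 and 0.00235 by edgeR). With the offsets the value of ALG13 in ACSS2-KO-3 was -0.98. RRM2B, with 36.4% GC, was at -1.09 in ACSS2-KO-3 with TMM scaling and at -0.16 with the offsets.

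The partners of the members that are not among them were also read. PDK4, the kinase induced by fasting and fatty acids, averaged 4.95 ± 0.296 CPM in ACSS2-KO-3, 5.87 ± 0.702 CPM in ACSS2-KO-2 and 7.02 ± 0.752 CPM in NC (SD, n = 3 each). It fell in ACSS2-KO-3 (-0.50, adjusted p = 0.00482 by edgeR), but not with the offsets, where it stood at 0.06 (adjusted p = 0.761). PDPR, the regulatory subunit that lowers the magnesium sensitivity of the phosphatase, stood at 72.2 ± 3.60 CPM in ACSS2-KO-3 and 51.6 ± 4.79 CPM in NC (SD, n = 3 each) and rose in both fits (0.48 and 0.29). PDP2, the second phosphatase, and MPC1 did not pass against NC in either knockout, with values between -0.08 and -0.06 under TMM scaling. PDHA2, the testis form of E1 alpha, and MPC1L were under the filter on low counts. In ACSS2-KO-2 none of the 4 tested genes passed, and 0 had an unadjusted p under 0.05 by edgeR.

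E1 needs thiamine diphosphate and E2 needs lipoate, and genes of both supply routes were counted. Of 13 lipoate genes, 6 were higher and 2 lower in ACSS2-KO-3 (6 and 3 with the offsets), where 31.2% and 32.1% of all tested genes were (25.1% and 32.8% with the offsets). The same call was made in both fits for 6 of them. In all, 8 of the 13 passed, which is near the background of 63.3%, and the median was 0.23 beside -0.04 for all tested genes. IBA57, an iron-sulfur cluster factor that lipoate synthase requires, rose to 23.6 CPM in ACSS2-KO-3, against 13.0 CPM in NC (0.87, and 0.60 with the offsets). LIPT1, which transfers lipoate to E2, fell to 2.40 CPM in ACSS2-KO-3, against 5.32 CPM in NC (-1.15, and -0.74 with the offsets). In ACSS2-KO-2 the 1 gene that passed was OXSM, named after its values were seen, with 0.883 CPM in ACSS2-KO-2 and 0.226 CPM in NC. With the offsets GLRX5, also named after its values were seen, passed too (0.21, adjusted p = 0.0217 by edgeR). The 5 thiamine genes had a median fold change of 0.05 in ACSS2-KO-3, beside -0.04 for all tested genes, and of 0.30 with the offsets, beside -0.08. In ACSS2-KO-2 none of the 5 passed, with 0 at an unadjusted p under 0.05 by edgeR.

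The sister 2-oxoacid dehydrogenases share DLD with the complex. Of the 10 tested of 12 listed, 3 were higher and 3 lower in ACSS2-KO-3 (1 and 3 with the offsets), so the number that passed was near or under the background of 63.3% (58% with the offsets). The same call was made in both fits for 3 genes. OGDH, the E1 of the 2-oxoglutarate complex, rose in ACSS2-KO-3 (0.60, and 0.27 with the offsets), and DBT, the E2 of the branched-chain complex, fell to 10.6 CPM in ACSS2-KO-3, against 22.0 CPM in NC (-1.04, and -0.38 with the offsets). In ACSS2-KO-2, OGDHL, a close relative of OGDH, rose to 2.77 ± 0.651 CPM, against 0.685 ± 0.173 CPM in NC (SD, n = 3 each; 2.01, SE 0.37), and the branched-chain phosphatase PPM1K, named after its values were seen, was the other gene that passed (0.65). Of 14 tested genes for other fates of pyruvate, 4 were higher and 2 lower in ACSS2-KO-3, and 6 and 6 with the offsets, where 63.3% and 58% of all tested genes passed in either direction. Pyruvate carboxylase (PC), which makes oxaloacetate from pyruvate, rose to 38.5 CPM in ACSS2-KO-3, against 23.2 CPM in NC (0.73, and 0.38 with the offsets). ME1, which makes pyruvate from malate, fell by 0.48 with TMM scaling, but not with the offsets, where it was 0.07. In ACSS2-KO-2 the lactate and pyruvate transporter SLC16A1 was the 1 gene that passed, at 93.9 CPM in ACSS2-KO-2 and 75.3 CPM in NC (0.32, adjusted p = 0.00124 by edgeR), and with the offsets PCK2, named after its values were seen, passed as well (0.20, adjusted p = 0.0275).

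Downstream of the complex, 11 of 15 TCA cycle genes were higher and 3 lower in ACSS2-KO-3, where 31.2% and 32.1% of all tested genes were, and their median was 0.24 beside -0.04 for all tested genes. With the offsets 9 were higher and 1 lower, where 25.1% and 32.8% of all tested genes were, with a median of 0.15 beside -0.08. Only 7 of the 15 genes had the same call in both fits. CS, citrate synthase, which uses the acetyl-CoA that the complex makes, rose to 269 CPM in ACSS2-KO-3, against 184 CPM in NC (0.55, and 0.31 with the offsets). SDHD, a subunit of succinate dehydrogenase, was lower with TMM scaling (-0.25) and higher with the offsets (0.16), passing both times. In ACSS2-KO-2 only 2 TCA cycle genes passed: IDH3A, a subunit of the NAD-dependent isocitrate dehydrogenase, as higher (0.26, adjusted p = 0.0304) and IDH2, the NADP-dependent mitochondrial form, as lower (-0.36, adjusted p = 0.000175), both by edgeR.

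The last list held genes known to be induced by HIF, together with HIF1A and EPAS1, which encode HIF alpha subunits. Of 23 tested of 24 listed, 7 were higher and 10 lower in ACSS2-KO-3, and 1 and 10 with the offsets, with medians of -0.12 and -0.02. These were not all the same genes, since 8 had the same call in both fits. Of all tested genes 31.2% were higher and 32.1% lower, and 25.1% and 32.8% with the offsets. ALDOC, a glycolytic aldolase, averaged 4.50 ± 0.795 CPM in ACSS2-KO-3, 8.47 ± 0.318 CPM in ACSS2-KO-2 and 12.9 ± 1.05 CPM in NC (SD, n = 3 each). It fell in ACSS2-KO-3 (-1.52, and -1.83 with the offsets) and in ACSS2-KO-2 (-0.61, adjusted p = 0.00156 by edgeR). ADM, the vasodilator peptide adrenomedullin, rose in ACSS2-KO-3 (0.41), but not with the offsets (0.10, adjusted p = 0.0738). In ACSS2-KO-2, 5 genes were lower and 2 higher, where 2.84% and 3.81% of tested genes were, and 7 were lower and 2 higher with the offsets, where 4.4% and 5.17% were. The lower ones beside ALDOC, named after their values were seen, were PFKFB4 (-0.61), BNIP3 (-0.47), KDM3A (-0.21) and BNIP3L (-0.21). Those added with the offsets, also named after their values were seen, were SLC2A1 (-0.22) and PGK1 (-0.17). EGLN3, one of the HIF prolyl hydroxylases, had 59 counts in the 3 ACSS2-KO-2 libraries and 3 in the 3 NC libraries. This is a ratio of 19.3 with a 95% counting interval of 6.27 to 96.0. The other higher gene was EPAS1, the HIF-2 alpha gene and not itself a HIF-induced partner of PDK1 (0.50).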

How the data were processed

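Polyadenylated RNA of 9 PANC-1 libraries, 3 per group, was selected on oligo(dT) beads and made into dUTP-marked paired-end libraries, per the labels' protocols. The authors deposited whole-number read counts per gene in 1 table with 9 library columns and no scaling. The submitters' processing notes name GRCh38 as the build and cutadapt 1.9, HISAT2 2.2.1, StringTie 2.1.6, DESeq2 and edgeR as tools. How reads were counted, and with which strand setting, is not given in the sources used here. All 58735 gene identifiers matched GENCODE release 29.

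Counts were scaled by TMM, filtered by filterByExpr (minimum count 10, minimum total 15; 15811 genes left) and fitted with edgeR 4.0.16 in R 4.3.3, by glmQLFit and glmQLFTest with 1 mean per group over all 9 libraries (6 residual degrees of freedom, common dispersion 0.00291). P-values are 2-sided and adjusted by Benjamini-Hochberg over all tested genes in each of 3 comparisons. The offsets come from a spline fit per library (5 degrees of freedom for GC content, 3 for log length of the longest coding transcript); 99.96% of tested genes had a value. The fits were also run on simulated data with 200 changed genes, and no result here rests on that run. Intervals are at 95%; counting intervals cover counting error only.

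The members and the 7 gene lists (92 genes, 84 tested) were chosen with earlier results of these data known. Named beside the 10 members were ACSS2, MPC1, PDK4, PDP2, the 3 genes nearest to PDK1, and per list and knockout the largest rise and fall that passed with at least 1 CPM in the higher group. A gene that this rule names is not reported here. Alternatives were RLE and upper quartile scaling, other count filters, DESeq2 1.42.0, limma-voom (limma 3.58.1), fits of 2 groups, a replicate block, the offsets, other transcript lengths, and leaving out each library. Libraries with the same replicate number did not deviate together (r of residuals -0.068 to 0.117, over 0.1 in 1 of 9 pairs), so they were not treated as pairs. No 2 libraries of a group agreed within sampling noise (chi-square per degree of freedom 1.82 to 4.40).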

Additional observations from a re-analysis of the deposited data

Results flagged for a closer look

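For 5 members the difference between the knockouts was itself tested and passed by edgeR with TMM scaling. In ACSS2-KO-3 relative to ACSS2-KO-2 the log2 difference was -0.73 for PDK1, -0.30 for DLD, 0.26 for PDK2, 0.21 for MPC2 and 0.17 for DLAT, in a comparison in which 61.7% of all tested genes passed. With the GC and length offsets the difference was 0.31 for DLAT and 0.44 for MPC2, which passed again, -0.01 for PDK1 and -0.08 for PDK2, which did not, and 0.26 for DLD, which passed in the other direction. The MPC2 difference did not pass with offsets from the median coding transcript (0.11, adjusted p = 0.195 by edgeR) or with upper quartile scaling (0.18, adjusted p = 0.0558). No member's group was tested for a single outlying library, since each has 3 libraries.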

How the results depend on the processing

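The 30 fold changes of the members (10 in each of 3 comparisons) were recomputed in 20 alternative settings. Of the 600 values, 522 kept their direction and their side of the threshold and 78 did not. The offsets for GC content and length moved most. In ACSS2-KO-3 against NC they turned DLD to 0.28, PDK2 to -0.19 and PDP1 to 0.23 (all passing), and in ACSS2-KO-3 against ACSS2-KO-2 they turned DLD to 0.26, PDP1 to 0.22, PDK2 to -0.084 and PDHA1 to -0.019. In ACSS2-KO-2 against NC they turned PDHB to 0.039. The offsets together with the replicate block gave 0.28, -0.19, 0.23, 0.26, 0.22, -0.083, -0.018 and 0.039 in that order. Offsets from the median coding transcript, chosen after seeing the data, turned DLD to 0.32 and PDK2 to -0.15 in ACSS2-KO-3 against NC, DLD to 0.30 and PDK2 to -0.068 in ACSS2-KO-3 against ACSS2-KO-2, and DLAT to -0.016 and PDHB to 0.0080 in ACSS2-KO-2 against NC. The cause of these turns was not tested.

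No member passed in ACSS2-KO-2 against NC by edgeR, and 1 (PDK1) passed with no low-count filter, with the offsets, with the offsets and the block, and with only the 2 groups compared. Leaving out 1 library gave 0 to 1. The replicate block alone changed no call: 0 members passed in ACSS2-KO-2 against NC and 5 in each of the other comparisons.

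Values near 0 that did not pass turned as well. PDHB in ACSS2-KO-2 against NC was 0.011 with RLE scaling, 0.0025 with no filter, 0.011 with DESeq2 and -0.035 to 0.029 without 1 library. PDHB in ACSS2-KO-3 was -0.023 against NC and -0.0099 against ACSS2-KO-2 with upper quartile scaling, -0.0099 and -0.0043 with genes averaging at least 1 CPM, and -0.00092 to 0.056 against NC without 1 library. In ACSS2-KO-2 against NC, DLD was -0.0018 with upper quartile scaling. Without 1 library, DLAT ran from -0.0039 to 0.033, DLD from -0.013 to 0.041, PDK3 from -0.038 to 0.35 and PDP1 from -0.016 to 0.057 in that comparison.

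PDK3 and PDP1 rest on 70 to 370 counts a library, which limits small changes. With TMM scaling the 95% interval of PDK3 in ACSS2-KO-3 against NC spans -0.06 to 0.64.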
